A study of Arabidopsis thaliana with 69 samples.

Results

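The auxin response genes described here are IAA29, IAA30, GH3.3, WES1 and LBD29, 5 genes taken as a list of names and followed through a culture in which the vessel regulator VND7 was switched on. Each had exactly 1 probe set that named it alone, so 5 of 22746 tested probe sets are their measurements. Their loci are AT4G32280 (IAA29), AT3G62100 (IAA30), AT2G23170 (GH3.3), AT4G27260 (WES1) and AT3G58190 (LBD29). IAA29 and IAA30 were set against GH3.3, WES1 and LBD29 because the 2 sets had moved in opposite directions at 9 h, so the 9 h directions are a description of that choice.

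The plants were Arabidopsis thaliana Col-0 seedlings of the T3 generation, grown as shaken liquid cultures in the dark for 6 days. The VND7 line carries VND7 fused to the VP16 activation domain and a steroid receptor part (VND7-VP16-GR) behind the 35S promoter, which drives it in most cells. The empty-vector line carries VP16-GR without VND7. Dexamethasone (DEX, 10 µM), a synthetic glucocorticoid that lets the receptor fusion enter the nucleus, was given to the induced flasks, and uninduced flasks received the solvent DMSO. VND7 line arrays numbered 24 with DEX, at 1, 3, 6, 9, 12, 24, 30 and 48 h, and 27 with DMSO, at these times and at 0 h. The empty-vector line had 9 DEX and 9 DMSO arrays at 9, 12 and 24 h. Every group had 3 arrays labelled as biological replicates, 69 arrays in 23 groups. How many independent transformants stand behind each line is not given in the labels. Hypocotyl is the labelled tissue, although the protocol describes washing and freezing whole flask contents, and all 4 hypocotyl elongation markers (EXPA8, EXPA9, XTH16, XTH19) were measured, with a mean log2 signal of 9.36 to 10.34 in 23 of the 27 uninduced arrays of the VND7 line.

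VND7 is a NAC transcription factor that turns plant cells into xylem vessel elements, with patterned secondary walls and programmed death. Auxin acts through TIR1/AFB receptors, which mark Aux/IAA repressor proteins for degradation and so free the auxin response factors to switch on early genes. Among these early genes are the Aux/IAA genes themselves, the GH3 genes and LBD transcription factor genes. IAA29 is an Aux/IAA gene also known as a target of the phytochrome-interacting factors that drive elongation in darkness. IAA30 encodes an Aux/IAA protein without the usual degradation motif. GH3.3 and WES1, also called GH3.5, encode enzymes that join auxin to amino acids and so lower its free level. LBD29 encodes a transcription factor of lateral root initiation that acts downstream of auxin response factors.

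Signals were log2 values with a common floor of 2.14, and a value less than 0.3 above it is called at the floor here. A gene was called changed at a Benjamini-Hochberg adjusted p under 0.05 in limma, adjusted over all tested probe sets, with a log2 change of at least 1. In such bulk samples fewer cells of a type and less RNA per cell cannot be told apart. Statements that arrays of 2 groups did not overlap are descriptions. The share of all probe sets that separated in this way was not counted. Array medians ran from 4.89 to 5.60. Centring each array on its median shifted the median DEX change of all probe sets in the VND7 line by between 0.01 and 0.58 and turned the split of calls at 9 h, 2683 up and 4019 down as deposited, into 4773 up and 2749 down. It turned no called change of the 5 genes in direction.

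Of the 51 VND7 line arrays, 10 stood out against their labels over all probe sets and are named as out of place below. For 9 of them the mean correlation with arrays of the opposite treatment exceeded that with arrays of the same treatment. Replicate 3 of DMSO 0 h was added because both of its 2 nearest arrays carry a DEX label, although its mean correlation was 0.931 with DEX arrays and 0.951 with DMSO arrays. With DEX they are replicates 2 and 3 of 1 h, replicate 2 of 24 h and all replicates of 48 h, and with DMSO replicate 3 of 0 h, replicate 2 of 1 h, replicate 2 of 6 h and replicate 1 of 24 h. Of 21 xylem vessel genes listed as markers, 6 were measured under a gene name (GUT2, IRX15, IRX15-L, GUT1, KINESIN-13A and AT1G66810). Their mean log2 signal was 8.43 to 12.00 in the 18 DEX arrays in place, 5.64 to 6.03 in the 23 DMSO arrays in place, and 5.61 to 5.79 in the empty-vector arrays. It was 9.53, 9.21 and 9.47 in the out-of-place DMSO arrays of 1, 6 and 24 h, and 5.98, 6.03 and 6.07 in the DEX arrays of 48 h. Leaving out these 10 arrays was decided after the data were seen, raises the number of DEX calls by construction and is no independent check.

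IAA30 was near the floor without VND7 and far above it after induction. At 3 h it read 7.33, 6.52 and 7.14 in DEX arrays, against 2.22, 2.19 and 2.36 in DMSO arrays, a log2 change of 4.74 ± 0.78 (SE, n = 3 each, adjusted p = 3.9e-06). At 9 h the DEX arrays read 7.80, 7.50 and 7.57 and the DMSO arrays 2.36, 2.36 and 2.31, a change of 5.28 ± 0.78. At 30 h the values were 7.84, 6.94 and 7.47 with DEX and 2.36, 2.46 and 2.18 with DMSO, a change of 5.09 ± 0.78 (adjusted p = 4.4e-05). At each of these times every DEX array lay far above every DMSO array.

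The rise was also called at 6 h, with a change of 4.08 ± 0.78, at 12 h, with 4.69 ± 0.78, and at 24 h, with 3.68 ± 0.78 (adjusted p = 0.0031). At 24 h the DEX arrays read 8.03, 3.31 and 8.03 and the DMSO arrays 3.63, 2.36 and 2.36, so the groups overlapped through 1 out-of-place array on each side. In the fit without such arrays the 24 h change was 5.67 ± 0.23, and the 24 h call was lost when only the 2 compared groups were fitted (adjusted p = 0.821) or without DEX replicate 1 (adjusted p = 0.0562) or replicate 3 (adjusted p = 0.0509). In the VND7 line 21 of the 23 DMSO arrays in place were at the floor, as were all 18 empty-vector arrays. Where both groups sat at the floor the size of a change has no meaning, and where only the DMSO group did, the fold depends on where the floor was set. In 12 arrays, 6 of the VND7 line with DMSO and 6 of the empty vector, the value 2.36 was identical to the last deposited digit, and 2.18 was so in another 12.

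IAA29 followed a different course from IAA30, high from 3 h to 12 h and not high at 30 h. At 3 h it read 8.86, 9.98 and 10.00 with DEX and 6.31, 7.75 and 6.03 with DMSO, a log2 change of 2.92 ± 0.78 (SE, n = 3 each, adjusted p = 0.0021). At 6 h the DEX arrays read 10.77, 10.50 and 10.45 and the DMSO arrays 7.77, 4.66 and 6.10, a change of 4.40 ± 0.78 (adjusted p = 1.2e-05). DMSO replicate 2, the lowest of these, is out of place, and in the fit without such arrays the change at 6 h was 3.64 ± 0.58. At 9 h the DEX arrays read 9.17, 9.75 and 9.80 and the DMSO arrays 6.90, 6.41 and 7.47, and at 12 h 9.91, 8.74 and 10.00 with DEX and 6.01, 7.34 and 7.39 with DMSO. The change was called at 9 h, with 2.65 ± 0.78, as well as at 12 h, with 2.64 ± 0.78. From 3 h to 12 h no DEX array overlapped a DMSO array of its time. The 12 h call was lost without DMSO replicate 1, where the change was 2.19 (adjusted p = 0.0528).

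At 24 h IAA29 read 6.81, 8.56 and 7.34 with DEX and 4.45, 6.70 and 7.61 with DMSO, and the groups overlapped. The change of 1.32 ± 0.78 was not called (adjusted p = 0.32), and without the out-of-place arrays, which were the highest DEX array and the lowest DMSO array, it was −0.07 ± 0.64. At 30 h the DEX arrays read 6.59, 4.87 and 4.74 and the DMSO arrays 7.62, 6.31 and 6.65. This change of −1.46 ± 0.78 was not called (adjusted p = 0.14), but it was called without the out-of-place arrays, none of which carries a 30 h label, when the SE was 0.52 (adjusted p = 0.018). In order of its group means, IAA29 stood at 10.57 ± 0.17 with DEX at 6 h (SD, n = 3), then at 9.62 ± 0.65 at 3 h, 9.57 ± 0.35 at 9 h and 9.55 ± 0.70 at 12 h. The last 3 of these did not differ beyond their spread. All other groups lay between 5.40 ± 1.03, with DEX at 30 h, and 7.57 ± 0.90, with DEX at 24 h.

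**Figure D1:**
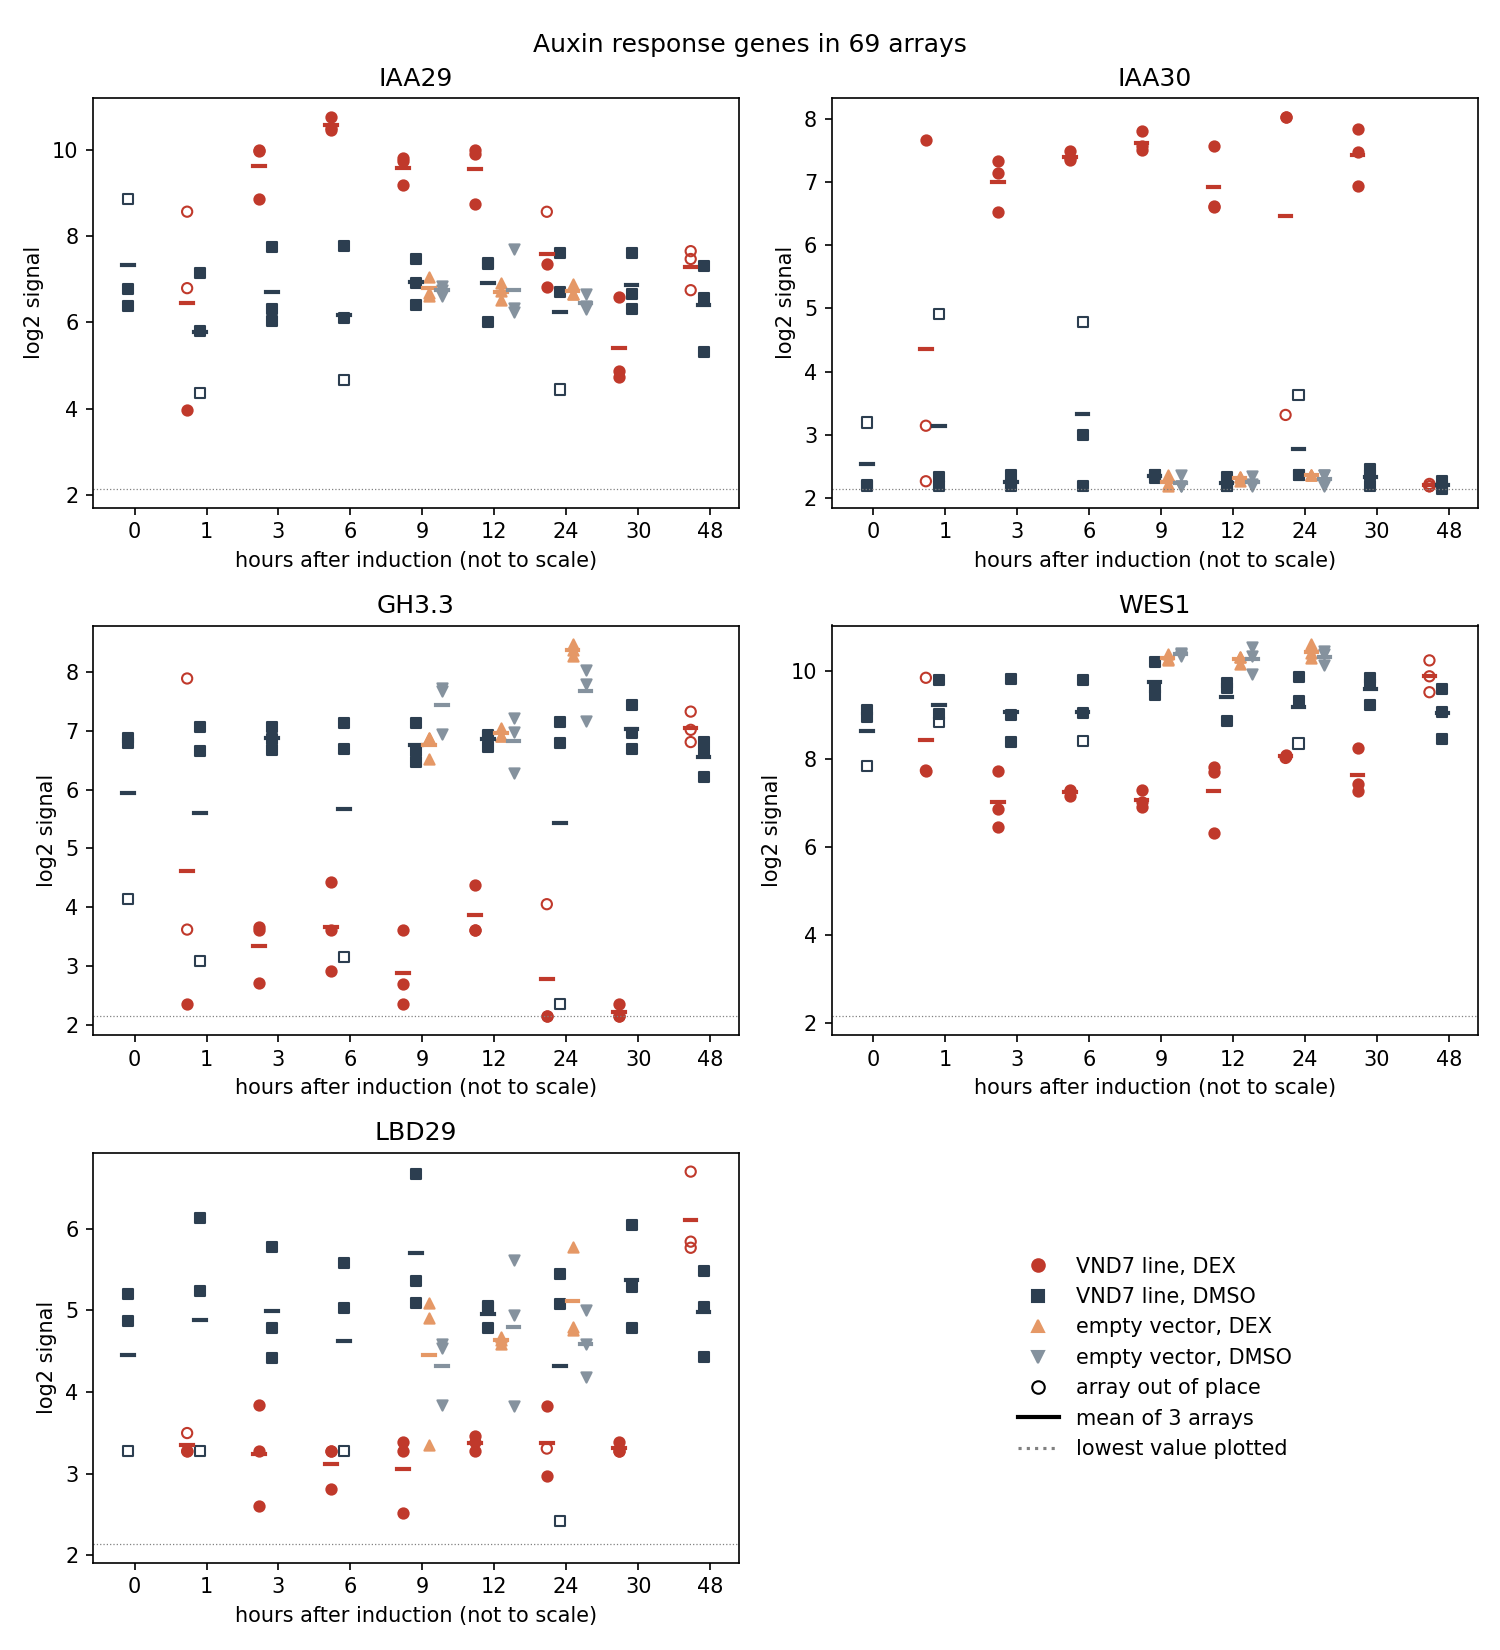
Log2 signal of the 5 auxin response genes in all 69 arrays (vertical axis) by hours after induction (horizontal axis, not to scale). Filled symbols are single arrays, open symbols the 10 arrays out of place, short lines group means and the dotted line the floor of 2.14; with DEX in the VND7 line IAA30 stayed above 6.5 from 3 h to 30 h in all but the open symbol at 24 h, while IAA29 was at 4.74 to 6.59 at 30 h.

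The later loss of the IAA29 effect was tested as a difference of 2 DEX effects. Its effect at 30 h minus that at 9 h was −4.11 ± 1.10 (SE, adjusted p = 0.014). This difference contains the 9 h effect that formed the sets, so it is not independent of that choice. IAA29 was the only 1 of the 5 genes called in this contrast, in which 4.46% of all probe sets were called. For IAA30 the same difference was −0.19 ± 1.11, for GH3.3 −0.95 ± 1.34, for WES1 0.74 ± 0.60 and for LBD29 0.59 ± 0.86, and these intervals do not show that their effects were equal at both times. The effect of none of the 5 was called to differ between 9 h and 3 h, with 0.0352% of all probe sets called, the 5 differences lying between −0.90 and 0.54. The plot of DEX effects by time shows this course for each gene.

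GH3.3 was high without VND7 and low after induction. At 3 h it read 2.71, 3.62 and 3.67 in DEX arrays and 7.07, 6.87 and 6.68 in DMSO arrays, a log2 change of −3.54 ± 0.95 (SE, n = 3 each, adjusted p = 0.0021). The values at 9 h were 2.35, 3.62 and 2.69 with DEX and 7.14, 6.47 and 6.66 with DMSO, a change of −3.87 ± 0.95. At 30 h all 3 DEX arrays were at the floor, with 2.35, 2.14 and 2.14, against 6.69, 7.45 and 6.97 with DMSO, a change of −4.83 ± 0.95 (adjusted p = 2.3e-04). At 12 h the fall was −2.99 ± 0.95. At 3, 9, 12 and 30 h the DEX and DMSO arrays did not overlap.

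At 6 h and 24 h GH3.3 was not called. The DEX arrays of 6 h read 3.62, 2.91 and 4.44 and the DMSO arrays 6.70, 3.15 and 7.14, and the change was −2.01 ± 0.95 (adjusted p = 0.097). Without the out-of-place DMSO replicate 2 alone it was −3.27 and called (adjusted p = 0.00679). At 24 h the DEX arrays read 2.14, 4.05 and 2.14 and the DMSO arrays 2.35, 6.80 and 7.16, with a change of −2.66 ± 0.95 (adjusted p = 0.07), which was −4.84 ± 0.38 and called in the fit without out-of-place arrays. The value 3.62 was identical to the last digit in 6 DEX arrays of the VND7 line, and 7 of its 24 DEX arrays were at the floor. These lowest levels therefore have no order among themselves.

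WES1 was also lower after induction, and it remained well above the floor. It read 6.45, 7.73 and 6.87 at 3 h with DEX, against 8.99, 9.82 and 8.38 with DMSO, a log2 change of −2.05 ± 0.43 (SE, n = 3 each, adjusted p = 1.2e-04). The 3 h call was lost when only the compared groups were fitted (adjusted p = 0.0526). At 9 h the DEX arrays read 7.28, 7.02 and 6.89 and the DMSO arrays 9.61, 9.45 and 10.19, a change of −2.69 ± 0.43. Falls of −1.84 ± 0.43 at 6 h, −2.13 ± 0.43 at 12 h and −1.95 ± 0.43 at 30 h (adjusted p = 5.1e-04) were called too. At 24 h the DEX arrays, at 8.06, 8.02 and 8.09, all lay below the DMSO arrays, at 8.35, 9.31 and 9.86, but the change of −1.11 ± 0.43 was not called (adjusted p = 0.095). Without the out-of-place arrays it was −1.51 ± 0.42 and called. No WES1 value was at the floor in any array, so these falls were measured on both sides.

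LBD29 fell with DEX as well, but several of its calls lay close to the limit of the test. At 9 h, the time by which it was put in its set, it read 3.28, 2.52 and 3.38 with DEX and 5.09, 5.36 and 6.67 with DMSO, a log2 change of −2.65 ± 0.61 (SE, n = 3 each). At 30 h the values were 3.28, 3.28 and 3.38 with DEX and 6.04, 5.29 and 4.78 with DMSO, a change of −2.06 ± 0.61 (adjusted p = 0.006). The 30 h call held in every setting tried, and at both times the groups did not overlap. The falls at 3 h (−1.75 ± 0.61, adjusted p = 0.016), 6 h (−1.51 ± 0.61, adjusted p = 0.047) and 12 h (−1.59 ± 0.61, adjusted p = 0.036) were called but lost after median centring, at −1.17, −1.07 and −1.10. At 12 h the call was lost whichever of the 6 arrays was left out, with adjusted p from 0.0581 to 0.0877. The 6 h call was lost without any 1 array other than DMSO replicate 2, with adjusted p from 0.0725 to 0.271. Of 14 settings tried, the call held in 10 at 3 h, 5 at 6 h and 6 at 12 h. In 12 arrays, 9 with DEX and 3 with DMSO, LBD29 held the identical value 3.28. The 3 DMSO arrays among them are out of place. The change at 24 h, −0.94 ± 0.61, was not called with all arrays and was −1.86 ± 0.54 and called without the out-of-place ones.

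**Figure D2:**
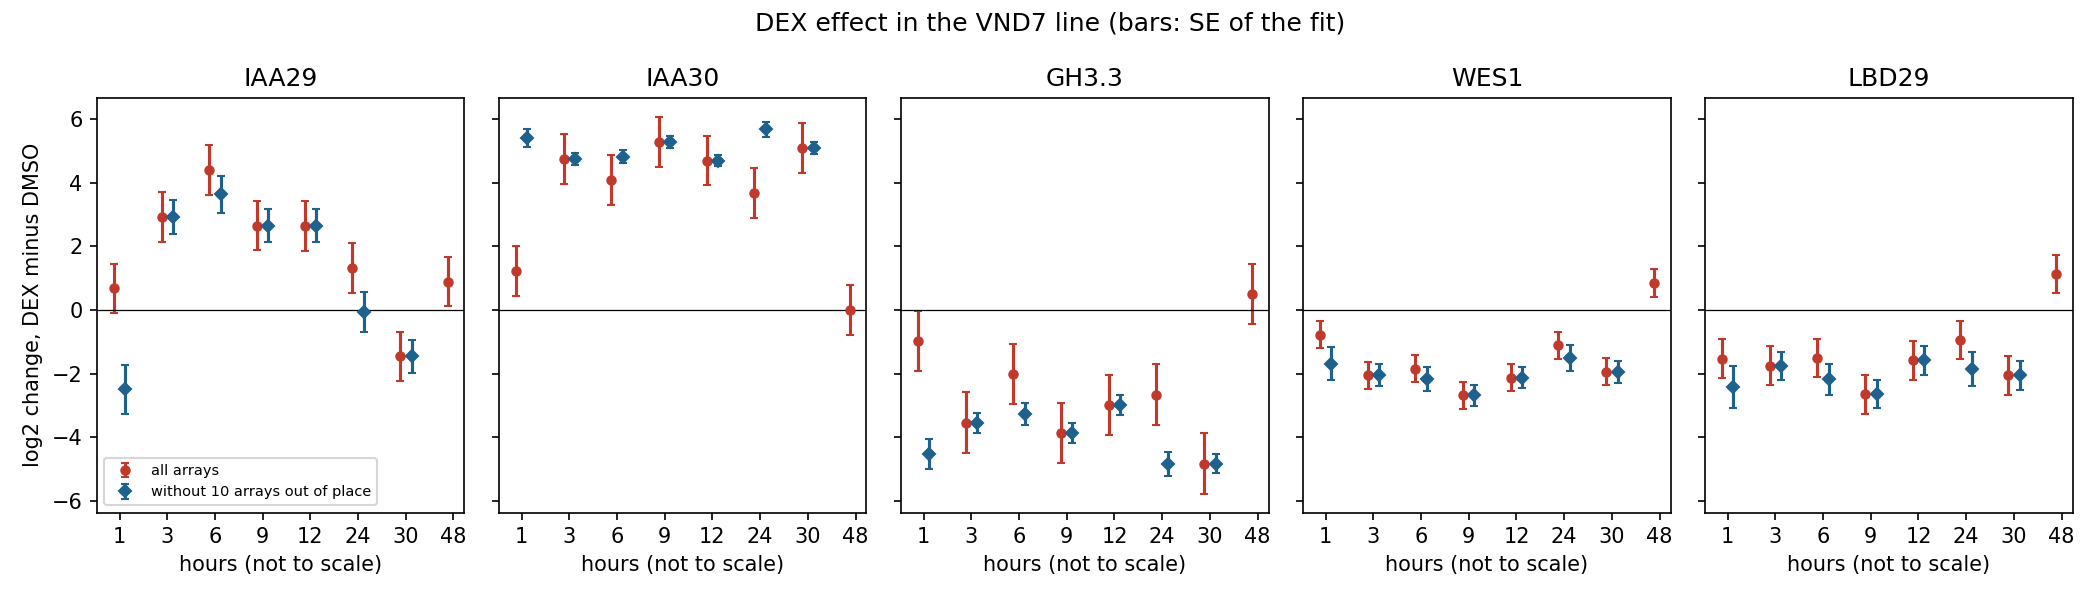
Log2 change of each gene, DEX minus DMSO in the VND7 line (vertical axis), by hours after induction (horizontal axis, not to scale). Circles are the fit of all arrays, diamonds the fit without the 10 arrays out of place and bars the SE of the fit; IAA29 passes from 4.40 at 6 h to −1.46 at 30 h, while the circles of IAA30 lie between 3.68 and 5.28 and those of the other 3 genes below 0 from 3 h to 30 h. The IAA30 diamond at 24 h is at 5.67.

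Over the time course, the number of the 5 genes called was 0 at 1 h, 5 at 3 h, 4 at 6 h, 5 at 9 h, 5 at 12 h, 1 at 24 h, 4 at 30 h and 0 at 48 h. Of all probe sets, 0.0132% were called at 1 h, 27.8% at 3 h, 22.5% at 6 h, 29.5% at 9 h, 22.2% at 12 h, 4.35% at 24 h, 28.0% at 30 h and 0.0044% at 48 h. The 9 h count is no evidence about the genes, since their 9 h directions formed the sets. Without the out-of-place arrays 4 were called at 24 h, against 30.4% of all probe sets. Averaged over the 8 times all 5 genes were called, with changes of 1.75 ± 0.28 for IAA29, 3.60 ± 0.28 for IAA30, −2.55 ± 0.34 for GH3.3, −1.46 ± 0.15 for WES1 and −1.36 ± 0.21 for LBD29 (SE), beside 19.8% of all probe sets. The 9 h effects that formed the sets are part of this average. Xylem and elongation markers moved with the same arrays. All 6 measured xylem genes rose at 9 h, from 1.19 for GUT1 to 9.95 for AT1G66810, and all 4 elongation genes fell, from −3.41 for EXPA9 to −5.65 for EXPA8. The elongation mean was 3.83 to 6.45 in DEX arrays in place and 9.36 to 10.34 in DMSO arrays in place. Both root hair genes listed, EXPA7 and EXPA18, rose at 30 h (1.53 and 2.05) and were not called at 9 h (0.66 and −0.01), and their mean was 4.0 to 6.01 in DEX arrays in place and 3.29 to 4.33 in DMSO arrays in place. The phloem gene OPS, the 1 of 4 listed that was measured, fell at 3 h (−1.03) and 6 h (−1.02) and was not called at 9 h (−0.74), with 2.50 to 3.95 in DEX arrays in place and 2.74 to 4.11 in DMSO arrays in place. The part of these shifts in the auxin gene results was not tested. The lateral root founder genes LBD16 and PUCHI, the 2 of 3 listed that were measured, were not called at 9 h (−0.67 and 0.30), and LBD16 and PUCHI stood at −0.22 and 0.01 at 30 h.

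At 1 h none of the 5 genes was called with all arrays. Before adjustment limma passed 1765 probe sets at a p under 0.05, LBD29 among them at a change of −1.53 ± 0.61 (adjusted p = 0.436). The 3 DEX arrays were unlike each other, IAA29 reading 3.97, 8.56 and 6.79, IAA30 7.66, 3.14 and 2.26, and GH3.3 2.35, 3.62 and 7.89. Replicate 1, the lone DEX array in place, thus carried high IAA30 with low IAA29, as the DEX arrays of 30 h did. In the fit without the out-of-place arrays, where the spread of other groups stands in for that of this single array, all 5 genes were called against a background of 30.6%, and IAA29 turned direction, with −2.49 ± 0.78 in place of 0.68 ± 0.78.

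At 48 h the 3 DEX arrays looked like DMSO arrays in these genes as well. IAA30 read 2.22, 2.18 and 2.18 with DEX and 2.14, 2.19 and 2.27 with DMSO, at the floor in all 6. GH3.3 read 6.81, 7.02 and 7.33 with DEX and 6.64, 6.81 and 6.21 with DMSO, and LBD29 5.84, 5.77 and 6.70 with DEX and 5.48, 4.43 and 5.04 with DMSO. Changes lay between −0.00 for IAA30 and 1.12 ± 0.61 for LBD29, and before adjustment limma passed 1580 probe sets at a p under 0.05. As all DEX arrays of 48 h are out of place, no value can be had without them.

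Several out-of-place arrays resembled each other in these genes across labels. The uninduced arrays of 1 h (replicate 2), 6 h (replicate 2) and 24 h (replicate 1) read 4.37, 4.66 and 4.45 for IAA29 and 4.92, 4.78 and 3.63 for IAA30. They were the 3 lowest DMSO arrays of the line for IAA29 and the 3 highest for IAA30. Replicate 2 of DEX 1 h, replicate 2 of DEX 24 h and replicate 3 of DMSO 0 h read 8.56, 8.56 and 8.85 for IAA29, 3.14, 3.31 and 3.19 for IAA30 and 3.62, 4.05 and 4.14 for GH3.3. In these 3 arrays WES1 read 7.73, 8.02 and 7.84, and LBD29 3.28, 3.31 and 3.28. High IAA29 beside low IAA30 appeared in them together with a xylem mean of 7.04, 6.98 and 7.44.

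To ask what DEX did without VND7, the same genes were compared in the empty-vector line. None of the 5 was called at 9, 12 or 24 h, when 0.0835%, 0.0879% and 0.123% of all probe sets were called. The 15 log2 changes lay between −0.69 and 0.70, both of them of GH3.3, at 9 h and 24 h. IAA29 read 6.61, 7.05 and 6.69 with DEX at 9 h, and over all 3 times it ran from 6.51 to 7.05 with DEX and from 6.24 to 7.70 with DMSO. WES1 lay between 10.15 and 10.61 with DEX and between 9.93 and 10.54 with DMSO. For GH3.3 the ranges were 6.53 to 8.48 with DEX and 6.28 to 8.03 with DMSO, and for LBD29 3.36 to 5.78 with DEX and 3.83 to 5.62 with DMSO. Pooled over the 3 times, the DEX and DMSO ranges of each of these 4 genes overlapped. At single times GH3.3 did not overlap at 9 h, with 6.53 to 6.89 with DEX and 6.94 to 7.74 with DMSO, nor at 24 h, with 8.27 to 8.48 with DEX and 7.18 to 8.03 with DMSO, in opposite directions. IAA29 did not overlap at 24 h either, with 6.66 to 6.88 with DEX and 6.30 to 6.65 with DMSO. Averaged over the 3 times the changes were 0.10 for IAA29, 0.04 for IAA30, 0.05 for GH3.3, 0.01 for WES1 and 0.16 for LBD29, none of them called, beside 0.22% of all probe sets.

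The difference between the DEX effects of the 2 lines was then tested directly. Averaged over 9, 12 and 24 h, it was called for all 5 genes, against 22.0% of all probe sets. The 9 h effects that formed the sets enter this average, so the count depends in part on that choice. IAA29 differed by 2.11 ± 0.64 (SE, adjusted p = 0.0069) and IAA30 by 4.51 ± 0.64 (adjusted p = 2.8e-07). GH3.3 differed by −3.22 ± 0.77 (adjusted p = 7.9e-04), WES1 by −1.99 ± 0.35 (adjusted p = 1.2e-05) and LBD29 by −1.89 ± 0.49 (adjusted p = 0.002). Without the out-of-place arrays, 2 of which are among the 24 h arrays of the VND7 line, the 5 differences were 1.64, 5.17, −3.95, −2.12 and −2.19 in the same order, and all were called, against 29.2% of all probe sets.

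At single times fewer of these differences passed, and those of 9 h use the DEX effects that formed the sets. At 9 h, with 22.9% of all probe sets called, IAA30 (5.27 ± 1.11), WES1 (−2.61 ± 0.60) and LBD29 (−2.78 ± 0.86) were called, while IAA29 (2.61 ± 1.10, adjusted p = 0.07) and GH3.3 (−3.19 ± 1.34, adjusted p = 0.069) were not. The LBD29 call at 9 h was lost without VND7 line DMSO replicate 3, at −2.30 (adjusted p = 0.0512). At 12 h IAA30 (4.63 ± 1.11) and WES1 (−2.12 ± 0.60) were called, against 13.4%, and the WES1 call was lost without VND7 line DEX replicate 2, at −1.64 (adjusted p = 0.0582). At 24 h none of the 5 was called, with 0.303% of all probe sets called, although IAA30 differed by 3.62 ± 1.11 and GH3.3 by −3.36 ± 1.34. IAA29 was called after median centring at 9 h (adjusted p = 0.00784) and at 12 h (adjusted p = 0.00857). Centring also raised the calls over all 22746 probe sets, to 6460 at 9 h, 4341 of them up, and 4576 at 12 h, 3410 of them up. Without the out-of-place arrays the counts were 5 at 9 h, 4 at 12 h and 4 at 24 h, the one missing being LBD29 at 12 h and IAA29 at 24 h, beside 30.3%, 23.1% and 27.5% of all probe sets.

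**Figure D3:**
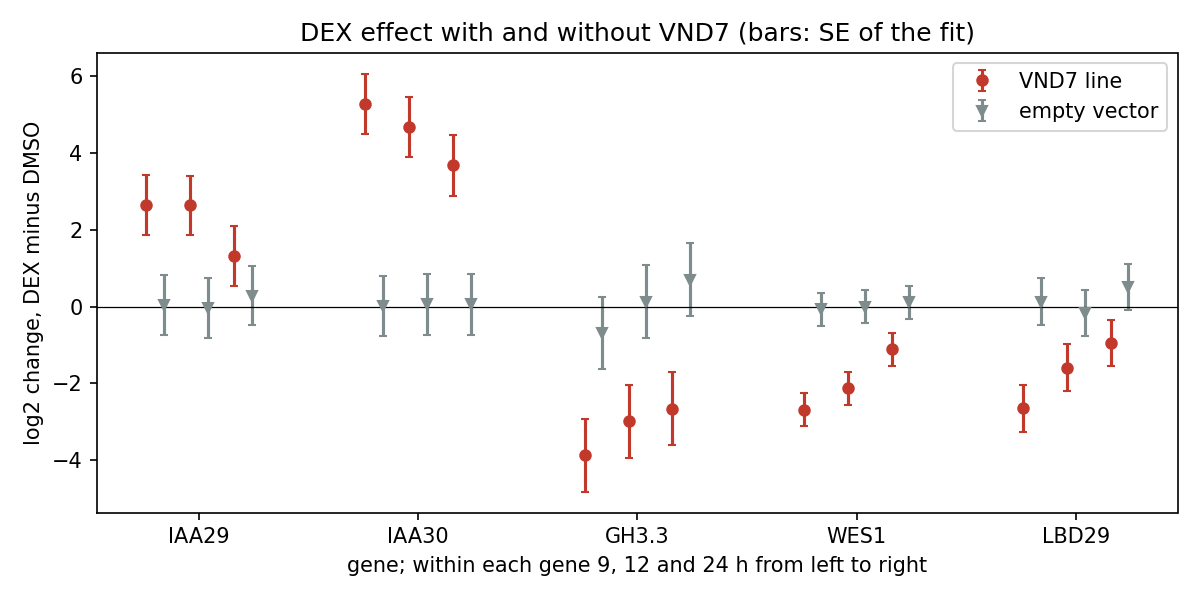
Log2 change, DEX minus DMSO (vertical axis), of each gene in the VND7 line (circles) and the empty-vector line (triangles), with 9, 12 and 24 h from left to right within each gene and bars for the SE of the fit. The triangles lie between −0.69 and 0.70, and the circles lie above 0 for IAA29 and IAA30 and below 0 for GH3.3, WES1 and LBD29.

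The lines were also compared without DEX. In DMSO arrays of 9, 12 and 24 h none of the 5 was called between the VND7 line and the empty vector, against 1.48%, 2.24% and 2.26% of all probe sets. Averaged over the times, WES1 stood at −0.88 ± 0.25 in the VND7 line relative to the empty vector (adjusted p = 0.0091), past the p-value but not the minimum change, with 3.99% of all probe sets called. WES1 read 9.61, 9.45 and 10.19 in VND7 line DMSO arrays at 9 h, and the empty-vector DMSO arrays of that time averaged 10.38 ± 0.03 (SD, n = 3). At 24 h WES1 differed by −1.15 ± 0.43 (SE, adjusted p = 0.13) and GH3.3 by −2.24 ± 0.95 (adjusted p = 0.2), and without the out-of-place array the GH3.3 difference was −0.69 ± 0.35. The GH3.3 difference over the 3 times was −0.97 ± 0.55. These were not called, which does not show that the lines were alike. LBD29 read 5.71 ± 0.85 in the VND7 line and 4.32 ± 0.42 in the empty vector at 9 h, a difference of 1.39 ± 0.61 (SE) that was called only without the out-of-place arrays (adjusted p = 0.042, with 3.71% of all probe sets called). Across the VND7 line's uninduced time course, no later DMSO group was called against 0 h for any of the 5 genes, and the 40 changes lay between −1.57 and 1.26. Of 22746 probe sets, 1 was called in this way at 3 h and 0 at every other time, so the lack of calls is not particular to these genes. The 0 h group includes the out-of-place replicate 3.

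The wider auxin pathway was read from a list of 181 loci of the Aux/IAA, GH3, LBD, SAUR, response factor, receptor, transport and metabolism families and of 12 loci listed as targets. LHW is among these 12 and is counted with the falls at 3, 6, 9, 12 and 30 h, and whether it responds to auxin was not tested. Only 25 of these were measured under a single gene name, among them 7 of 29 Aux/IAA loci, 5 of 9 GH3 loci and 2 of 29 LBD loci, and no SAUR, response factor or receptor gene. Of the 20 that are not among the 5 genes, 0 rose and 6 fell at 9 h, with 11.8% of all probe sets called up and 17.7% called down. Their median log2 change was −0.07, beside 0 over all probe sets. Leaving out probe sets that lay more than 0.3 above the floor in fewer than 3 arrays kept 13 of the 20. The median of these was −0.67 at 9 h, beside −0.007 over all probe sets kept, and −0.07 at 30 h, beside 0. Of all 20, 5 fell and 0 rose at 3 h and at 30 h. At 6 h 4 fell and 0 rose, and at 12 h 4 fell and 1 rose, and none was called at 1, 24 or 48 h. Of all probe sets, 10.4% rose and 17.4% fell at 3 h, 9.85% rose and 12.7% fell at 6 h, 8.94% rose and 13.2% fell at 12 h, and 12.7% rose and 15.2% fell at 30 h. After median centring 3 of the 20 rose and 4 fell at 3 h, where 21.2% and 10.9% of all probe sets did. At 6 h it was 1 and 3, beside 16.5% and 7.88%, and at 9 h 0 and 5, beside 21.0% and 12.1%. At both 12 h and 30 h 1 rose and 4 fell, beside 17.1% and 8.22% at 12 h and 19.8% and 11% at 30 h. The genes that then rose were YUC2, YUC4 and YUC11 at 3 h, YUC4 at 6 h and 12 h, and GH3.17 at 30 h, all chosen for mention after their values were seen.

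AT1G14120 fell furthest of these genes. It read 2.80, 2.80 and 2.84 at 9 h with DEX and 8.83, 7.87 and 8.07 with DMSO, a log2 change of −5.45 ± 1.10 (SE, n = 3 each), and its change at 30 h was −5.59 ± 1.10. HAT2, an auxin-inducible homeodomain leucine zipper gene, read 2.68, 2.68 and 2.83 with DEX and 7.13, 6.41 and 7.10 with DMSO at 9 h, with changes of −4.15 ± 0.98 at 9 h and −3.92 ± 0.98 at 30 h. IAA20, a relative of IAA30 whose protein also lacks the usual degradation motif, went the other way from IAA30. It read 3.44, 3.51 and 4.31 with DEX and 7.68, 7.49 and 7.18 with DMSO at 9 h, changes of −3.69 ± 0.93 at 9 h and −4.01 ± 0.93 at 30 h. WAG2, whose kinase sets the polarity of auxin efflux carriers, changed by −3.32 ± 1.06 at 9 h and −4.41 ± 1.06 at 30 h.

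Smaller falls at 9 h were those of LHW, a bHLH gene of vascular cell proliferation, at −1.89 ± 0.24, and of GH3.17, a further auxin-conjugating enzyme gene, at −1.64 ± 0.50. GH3.17 read 8.02, 7.32 and 7.52 with DEX and 9.17, 8.85 and 9.75 with DMSO at 9 h. At 30 h it read 10.15, 9.89 and 10.70 with DEX and 9.23, 9.05 and 9.07 with DMSO, every DEX array above every DMSO array, but its change of 1.13 ± 0.50 was not called (adjusted p = 0.067). It was called up at 30 h without the out-of-place arrays, in which the SE fell to 0.26, as well as after median centring. YUC4, an auxin synthesis gene, was the 1 rise at 12 h, at 1.22 ± 0.43, and is named after its value was seen. LBD16, the other measured LBD gene and a lateral root gene like LBD29, was not called at any time.

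**Figure D4:**
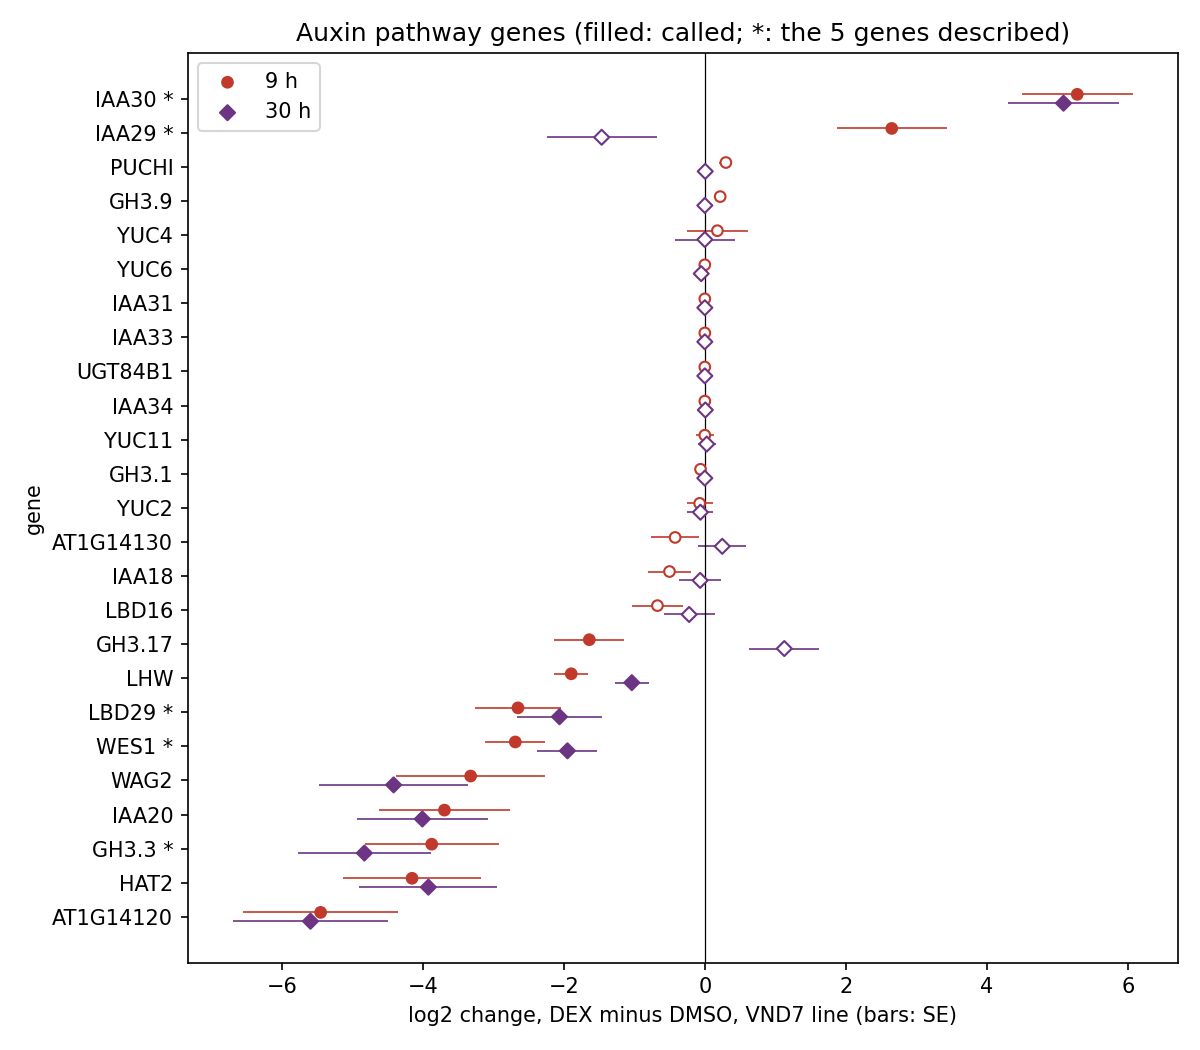
Log2 change, DEX minus DMSO in the VND7 line (horizontal axis), of the 25 measured auxin pathway genes, at 9 h (circles) and 30 h (diamonds), with SE bars. Filled symbols are called changes and stars mark the 5 genes described; filled symbols right of 0 are IAA30 at both times and IAA29 at 9 h, and the lowest is AT1G14120 at −5.59.

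The probe sets most like each gene were found by Pearson correlation of log2 signal over the 69 arrays, which share lines, treatments and times, so the coefficients mostly describe the contrast between induced and uninduced arrays. For IAA29 the nearest were the beta-expansin gene EXPB1 (r = 0.93), SETH3 (0.90) and AT1G34110 (0.89). Within the 18 DEX arrays of 3 h to 30 h these 3 stood at 0.94, 0.91 and 0.94. EXPB1 changed by 3.72 ± 0.83 (SE) at 6 h and was called, and by −1.19 ± 0.83 at 30 h, where it was not. IAA30 was nearest to AT2G18720, AT5G47635 and AT3G24840, each at r = 0.98. GH3.3 was nearest to AT5G62280 (0.97), AT4G35720 (0.95) and AT5G02540 (0.95), and WES1 to AT3G02750 (0.96), AT3G26510 (0.96) and AT1G49500 (0.95). For LBD29 the nearest, AT1G64405, AT1G67750 and AT1G76620, reached 0.88, 0.84 and 0.84 over 69 arrays but 0.44, 0.07 and 0.16 within the 18 DEX arrays. Among the 5 genes themselves GH3.3 and IAA30 had r = −0.89 over 69 arrays and IAA29 and IAA30 0.41, and within the 18 DEX arrays IAA29 and GH3.3 had 0.71. In these 18 arrays GH3.3 was at the floor in 6 and on a value shared by at least 4 arrays in 11. LBD29 was on such a shared value in 7 of the 18, which limits the coefficients of both genes. The 18 include the out-of-place replicate 2 of 24 h.

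In the uninduced arrays in place of the VND7 line, IAA29 from the first set and WES1 from the second varied together. Over the 23 DMSO arrays in place of the VND7 line they had Pearson's r = 0.87 and Spearman's rho = 0.88 (two-sided permutation p = 1e-05 for both, the smallest that 100000 permutations can give, 2e-04 adjusted over 20 pairs). Without the 2 arrays farthest from the median of IAA29 r was 0.84. After each group's mean was taken out r was 0.94, and after each array's median was taken out it was 0.88. Of 13505 other single-gene probe sets, 80, or 0.592%, correlated with IAA29 at least as strongly in these arrays. The permutations shuffled arrays freely across times. The DMSO arrays left out were chosen after the data were seen, and no value was computed with them. Among them, replicate 3 of 0 h held the line's highest uninduced IAA29 (8.85) and lowest uninduced WES1 (7.84). The others left out had its lowest uninduced IAA29, each with the lowest WES1 of its group (8.83 at 1 h, 8.40 at 6 h, 8.35 at 24 h). In the 18 empty-vector arrays the pair had r = 0.58 and rho = 0.52 (permutation p = 0.0174 and 0.028, adjusted p = 0.0694 and 0.14), and r was 0.33 without the 2 farthest arrays. The difference between the lines was not tested.

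WES1 and LBD29 had r = 0.68 and rho = 0.56 over the 23 arrays (permutation p = 3.7e-04 and 0.00704, adjusted p = 0.0037 and 0.0704), and r = 0.55 without the 2 farthest. Of the 13505 other probe sets 1334, or 9.88%, correlated with WES1 at least as strongly. In the empty-vector arrays they had r = 0.59 and rho = 0.52 (permutation p = 0.0104 and 0.0266, adjusted p = 0.058 and 0.14), and r = 0.34 without the 2 farthest. For IAA29 and LBD29 r was 0.52 over the 23 arrays (permutation p = 0.0116, adjusted p = 0.058), and 15.2% of the other probe sets reached that value with IAA29. The remaining 15 of the 20 pairs had an adjusted p for r of 0.28 or more, among them all 8 pairs of IAA30. The scatter of uninduced arrays shows the 2 pairs.

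**Figure D5:**
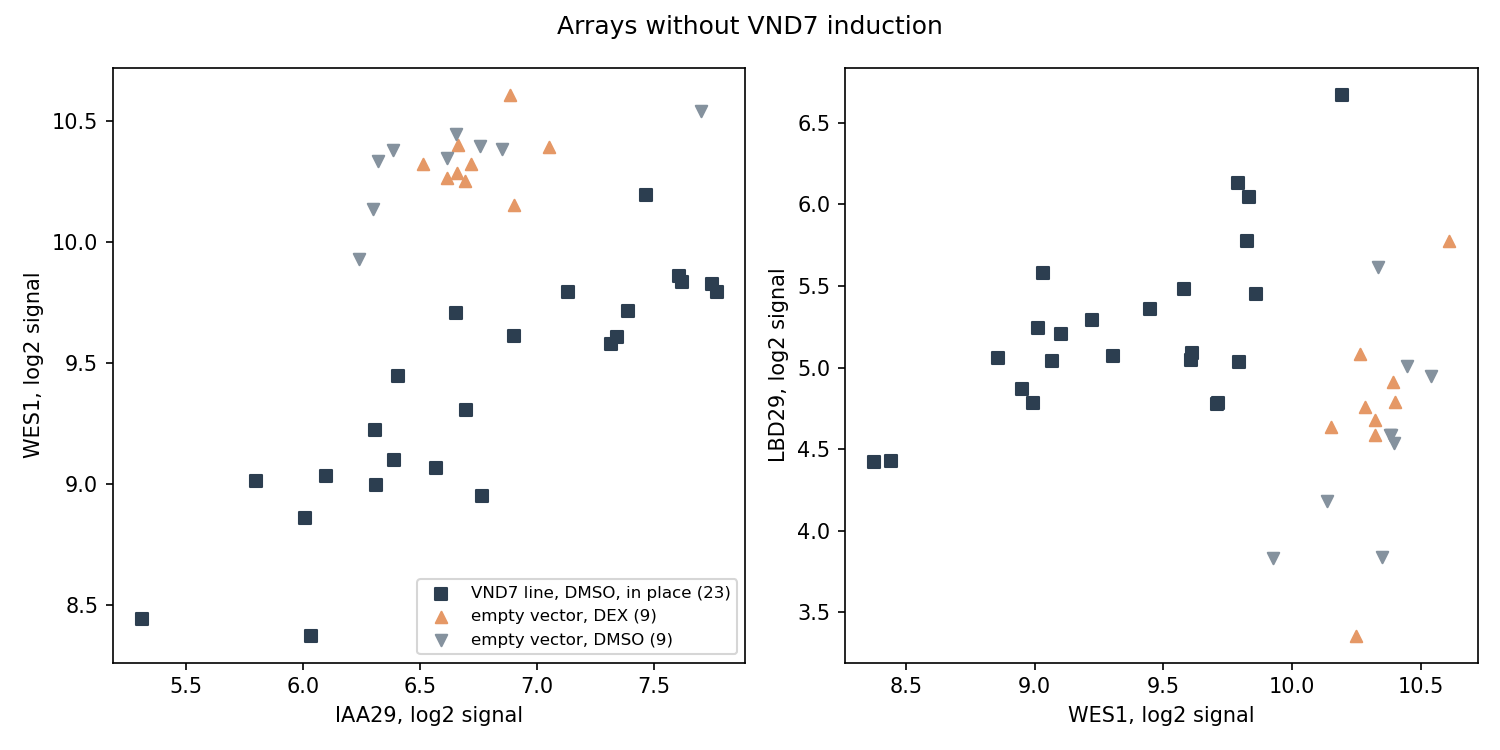
Log2 signal of WES1 against IAA29 (left) and of LBD29 against WES1 (right) in arrays without VND7 induction, with 1 point per array: 23 VND7 line DMSO arrays in place (squares), 9 empty-vector DEX arrays (upward triangles) and 9 empty-vector DMSO arrays (downward triangles). In the left panel the squares climb along a line (r = 0.87) and lie mostly below the empty-vector arrays, which are between 9.93 and 10.61 for WES1.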

How the data were processed

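Affymetrix ATH1 arrays were measured in 69 samples. The authors deposited log2 values made with GCRMA, per the submitters' processing notes (version not given there), which removes background and normalizes between arrays, so low probe sets pile up at shared values and global shifts can be reduced. Arrays carry no counts, and 3 per group limit the precision. The table has 22810 probe sets, of which 64 controls were left out. A platform annotation table gave 1 gene to 13513, several to 503 and none to 8730, and 13436 of the single names matched a RefSeq locus. Genome build and sequences were not used here.

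limma 3.58.1 in R 4.3.3 fitted 1 mean per group over all 69 arrays (lmFit, contrasts, eBayes with trend), with adjustment over all probe sets within each comparison. The script was tested on simulated data that had no floor, shared values or out-of-place arrays, so that test does not cover these features. Correlations used two-sided permutation tests. The 5 genes, the pathway and marker lists were chosen with earlier results of these data known. Named besides the 5 genes are the 3 most alike probe sets and, of the pathway list, the 3 largest called changes per direction at 9 h and 30 h, with exceptions stated.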

Additional observations from a re-analysis of the deposited data

Results flagged for a closer look

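The DEX effects of the VND7 line and the empty-vector line differed by a test of the difference itself. At 9 h the difference, VND7 line minus empty vector, was 5.27 for IAA30, −2.61 for WES1 and −2.78 for LBD29 on the log2 scale. At 12 h it was 4.63 for IAA30 and −2.12 for WES1. Averaged over 9, 12 and 24 h, it was 2.11 for IAA29, 4.51 for IAA30, −3.22 for GH3.3, −1.99 for WES1 and −1.89 for LBD29. The 9 h effects that formed the sets enter both the 9 h values and this average. Within the VND7 line, the IAA29 effect at 30 h differed from that at 9 h by −4.11, a difference called in 20 of 20 settings. All of these settings use the 9 h effect that formed the sets. With 3 arrays a group, single arrays were not tested as outliers.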

How the results depend on the processing

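With 3 arrays a group, calls near the threshold moved. Without the 10 out-of-place arrays, the number of the 5 genes called was 5 at 1 h and 4 at 24 h (30.6% and 30.4% of all probe sets), 5, 4 and 4 for the difference between lines at 9, 12 and 24 h, and 1 between uninduced lines at 9 h, and 6 and 5 of the 20 other pathway genes were called at 1 h and 24 h. IAA29 turned to −2.49 at 1 h, where 1 DEX array was left. Fitting only the compared groups gave 3 genes at 3 h, where WES1 (−2.05, adjusted p = 0.0526) and LBD29 (adjusted p = 0.0725) were lost, 0 at 24 h, 5 and 4 for the difference between lines at 9 h and 12 h, and 1 pathway gene at 6 h. In that setting 4220 of 22746 probe sets were called at 3 h, 2653 at 6 h and 1 at 24 h. For the difference between lines 7014 were called at 9 h and 3802 at 12 h. With no minimum change, 1 gene was called between uninduced lines over the 3 times, beside 3285 of 22746 probe sets. At 3 h and 24 h 8 and 2 pathway genes were then called, beside 9782 and 1828 probe sets. Quantile normalization gave 3 pathway genes at 3 h, beside 6152 of 22746 probe sets. Beyond the smaller number of arrays or groups in the first 2 settings, the cause was not tested.

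Leaving out 1 array at a time gave 0 to 1 genes at 1 h, 4 to 5 at 3 h, 3 to 5 at 6 h, 5 at 9 h, 3 to 4 at 12 h, 0 to 4 at 24 h, 4 at 30 h and 0 at 48 h. For the difference between lines it gave 2 to 3 at 9 h, 1 to 2 at 12 h and 0 to 1 at 24 h, and between uninduced lines 0 to 1 at 24 h, where WES1 was called without VND7 line DMSO replicate 3 (−1.49). At 24 h, leaving out DMSO replicate 1 called GH3.3 (−4.20), WES1 (−1.53) and LBD29 (−1.89), and leaving out DEX replicate 2 called GH3.3 (−3.30). The shares of all probe sets called in these fits are not given here, so such ranges are no result about the 5 genes in particular. The replicate block took 1 call of the 5 genes, LBD29 at 6 h, at −1.51 with an adjusted p of 0.0512, which left 3 at 6 h in place of 4, and moved no other count of the 5 genes. The replicate numbers do not pair the arrays: deviations correlated above 0.1 in 8 of 33 DEX and DMSO pairs of the same number (range −0.78 to 0.77), and 17 of 69 arrays were nearest to an array of their number. Values at the floor limit IAA30 without VND7 and GH3.3 with DEX. A shared low value limits the size of the LBD29 falls, as 9 of its 24 DEX arrays held 3.28.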
